A study of Homo sapiens with 6 samples.

Results

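The 9 genes described here are the p53 feedback regulators MDM2 and MDM4 and 7 direct p53 targets, namely FAS, ZMAT3, XPC, DDB2, RRM2B, SESN1 and FDXR. They were chosen by name from the 17177 gene symbols of the table, and all 9 were found. RNA-seq was run on NCI-H660, a human cell line of neuroendocrine prostate cancer (NEPC) that the labels give as WT in genotype. The cells were treated with pyrvinium pamoate (PP), an anthelmintic, or with PBS as the control, and 3 libraries per treatment were collected on day 3. Both groups come from the same line, and the concentration of PP used for these libraries was not found in the sources used here. The labels do not say whether the libraries came from separate cultures, while a legend of the study calls the samples independent and its methods give fewer per group. The P values below therefore measure the spread between these libraries, which may be technical.

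The p53 protein is a transcription factor that is held at a low level by the ubiquitin ligase MDM2 and its partner MDM4, both of which bind its activation domain. MDM2 is itself a p53 target, so the pair forms a feedback loop. When DNA damage or another stress frees p53, it binds pairs of half-sites near its targets, and these genes then act in cell cycle arrest, cell death, DNA repair and metabolism.

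Stretches that resemble the p53 response element are written here for the genes with the closest matches, because p53 is known to reach direct targets through such an element. Whether p53 uses the stretches shown was not tested. RefSeq promoter windows of 300 bases (250 before and 50 after each annotated start, GRCh38.p14) were held for 8 of the 9 genes, in 18 windows. Each was searched on both strands for the p53 half-site by its usual name, and, in a search chosen after seeing the data, for a pair of half-sites with a spacer of 0 or 1 base and at most 3 mismatches. Capitals mark bases that fit the half-site, small letters inside the site mark mismatches or the spacer, and the sequences run 5′ to 3′ on the strand of the gene. The positions are those of the 30 bases shown, found by exact match to GRCh37 (hg19). Where pairs of a gene tied in mismatches, as for FDXR, the one with the shorter spacer is shown. The closest pair of each gene, and the second pair of MDM2, were as follows.
DDB2, no mismatch, in an exon outside the coding sequence, chr11:47236526-47236555, plus strand: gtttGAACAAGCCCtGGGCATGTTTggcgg
MDM2, 2 mismatches, in an intron before an internal start, chr12:69202698-69202727, plus strand: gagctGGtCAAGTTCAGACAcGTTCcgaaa
MDM2, 3 mismatches, in the same intron, chr12:69202736-69202765, plus strand: aaaggAGttAAGTCCtGACTTGTCTccagc
FAS, 2 mismatches, in an exon outside the coding sequence, chr10:90751061-90751090, plus strand: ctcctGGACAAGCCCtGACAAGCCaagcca
SESN1, 3 mismatches, in an intron before an internal start, chr6:109330216-109330245, minus strand: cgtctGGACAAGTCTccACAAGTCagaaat
XPC, 3 mismatches, in an exon outside the coding sequence, chr3:14220065-14220094, minus strand: aagtgGAAtTTGCCCAGACAAGCaacatgg
FDXR, 3 mismatches, in an exon outside the coding sequence, chr17:72869116-72869145, minus strand: ggcccGGGCAgGagCGGGCTTGCCCtgcgg

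Pairs of half-sites within 3 mismatches were found in 9 of the 18 windows, belonging to 6 of the 8 genes, and in 9.75% of all 35116 windows, or for 11.9% of the 27305 genes. The 8 genes have more windows per gene than genes at large, and windows of a gene can share a site, so the shares per gene are not like for like. The genes were chosen as p53 feedback and target genes, and the pair search after seeing the data. A higher share than that of all windows is therefore no independent finding. MDM4 and ZMAT3 had no match in these windows. A perfect half-site was present for FAS, FDXR, SESN1 and DDB2, in 4 of the 18 windows, against 6.63% of all windows. The ATF4 and CHOP composite element TGATGNAA, searched on both strands, was found in none of the windows of the 8 genes and in 3.62% of all windows. A match is only a likeness in letters, and no binding was measured in these libraries.

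The deposited values are FPKM, the fragments counted for a gene per kilobase of its length and per unit of library depth. Whole counts could be recovered from their steps, and each library held between 29064253 and 32481171 of them, with the deepest 11.8% above the shallowest. The 10 neuroendocrine markers listed summed to 841 to 847 FPKM in PBS and to 443 to 459 in PP. Of these markers, 8 passed the filter used below. CHGA, which encodes chromogranin A, is not the highest of them and is named outside the rule given below. It was at 43.3 ± 0.870 FPKM in PBS and 24.8 ± 1.09 in PP (SD, n = 3 each). Of the 8 markers tested, 5 fell with PP while 1 rose. The sums of the other lists are given over all 6 libraries. They were 0.813 to 1.95 FPKM for 5 prostate luminal markers and 4.09 to 4.91 for 6 fibroblast markers. For 6 immune markers they were 2.17 to 3.42, and for 4 endothelial markers 2.96 to 4.76. COL1A1 was the one fibroblast marker above the filter and rose, CDH5 was the one such endothelial marker and fell, and both immune markers above it were not called. The part of these genes in the results below was not tested.

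With PP, the 9 genes did not move together. XPC, which recognises DNA lesions, rose 1.75-fold and SESN1, a stress-induced inhibitor of mTORC1 signalling, rose 1.64-fold in FPKM. FDXR, ZMAT3 and FAS fell by 28.7%, 19.7% and 31.8%. MDM2, MDM4, DDB2 and RRM2B were not called, though RRM2B was under another scaling given below. Changes were tested with limma on log2(FPKM + 1), a scale that understates the change of low genes, over the 11726 genes whose mean FPKM reached 1, and a gene was called at a Benjamini-Hochberg adjusted p under 0.05. Of the 8 genes above this filter, 2 were called higher and 2 lower, where 38.1% of all genes tested were called higher and 34.4% lower. FAS was below the filter, and was called lower in the same fit over the 13771 genes whose mean reached 0.1, of which 32.4% were called lower. The median log2 fold change of the 8 genes was 0.05 and that of all genes tested was 0.02.

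**Figure D1:**
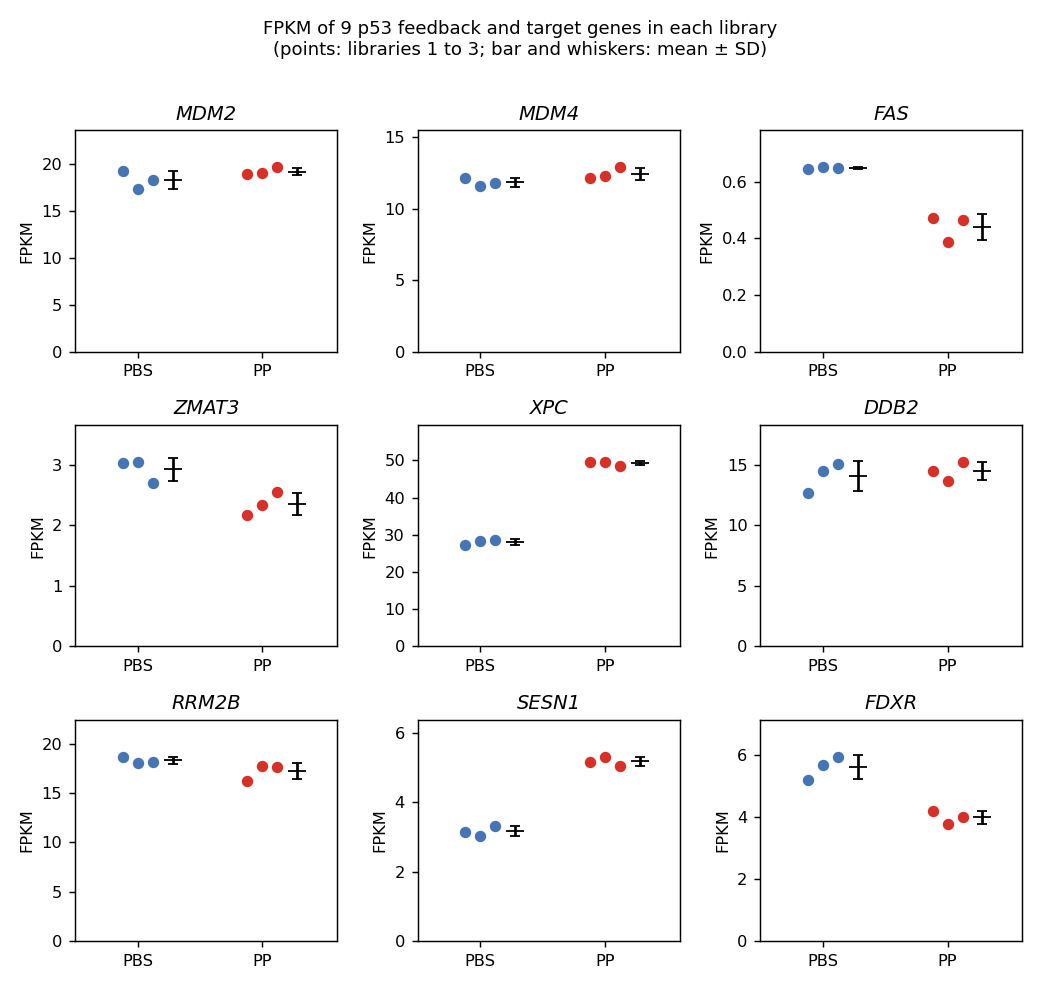
FPKM of each of the 9 genes in the 3 PBS and 3 PP libraries, one panel per gene with its own axis from 0; points are libraries, and the bar with whiskers is the mean ± SD. The PP libraries of XPC (48.6 to 49.6) and SESN1 (5.06 to 5.32) sit above all PBS libraries, those of RRM2B, ZMAT3, FDXR and FAS sit below, and those of MDM2, MDM4 and DDB2 overlap.

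Among the feedback regulators, the ubiquitin ligase MDM2 (ENSG00000135679, chr12:69201957-69239324 on hg19) was at 19.2, 17.3 and 18.3 FPKM in PBS replicates 1, 2 and 3, and at 18.9, 19.0 and 19.6 in PP replicates 1, 2 and 3. The 2 ranges overlap, and the lowest and highest counts behind them were 3831 and 4848. The means were 18.3 ± 0.953 and 19.2 ± 0.402 FPKM (SD, n = 3 each), a log2 fold change of 0.06 with a 95% confidence interval of -0.04 to 0.17 (limma, adjusted p = 0.237). On this scale the interval spans 0.973-fold to 1.12-fold. It measures only the spread between these libraries, which may be technical. The log2 fold change itself ranged from 0.03 to 0.10 over the alternatives given below.

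MDM4 (ENSG00000198625, chr1:204485507-204527248), which binds p53 but has little ligase activity of its own, was at 12.2, 11.6 and 11.8 FPKM in PBS and at 12.1, 12.3 and 12.9 in PP. These ranges overlap as well, and the means were 11.9 ± 0.301 and 12.4 ± 0.406 FPKM. MDM4 changed by 0.06 log2 units (-0.04 to 0.17, limma adjusted p = 0.230). Within each library, MDM2 exceeded MDM4 by 0.58 ± 0.04 units of log2(FPKM + 1) in PBS and by 0.59 ± 0.01 in PP, and an exact permutation test of this difference gave p = 1.

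FAS (ENSG00000026103, chr10:90750414-90775542), the death receptor that binds FAS ligand, was the lowest of the 9 genes. Its FPKM was 0.645, 0.651 and 0.647 in PBS and 0.472, 0.388 and 0.465 in PP, from 153 to 162 counts and from 94 to 122 counts. All PP libraries were below all PBS libraries, with means of 0.648 ± 0.00332 and 0.442 ± 0.0462 FPKM. The log2 fold change was -0.19 (SE 0.06, limma adjusted p = 0.0162). At this level the pseudocount sets the size: it was -0.47 with a pseudocount of 0.1, and -0.55 in limma-voom on the recovered counts. Without PP replicate 2, the lowest library, the change was -0.17 and no longer called (limma adjusted p = 0.0568).

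Downstream of FAS, 4 of 7 signalling genes tested rose, 1 fell and 2 were not called. Beside this and the later lists, 38.1% of all genes tested were called higher and 34.4% lower. The initiator caspase CASP8 was at 5.02 ± 0.269 FPKM in PBS and 10.4 ± 0.524 in PP (log2 fold change 0.92). CFLAR, which restrains CASP8, rose by 0.21 log2 units, and BID, a CASP8 substrate that links the receptor to mitochondria, fell by 0.56 log2 units. The other death receptor TNFRSF10B, which binds TRAIL, was at 8.64 ± 0.771 and 25.6 ± 1.42 FPKM, a log2 fold change of 1.46. The difference between FAS and TNFRSF10B in log2(FPKM + 1) changed by -1.66 in PP, with no overlap between the groups.

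ZMAT3 (ENSG00000172667, chr3:178677909-178790003), an RNA-binding zinc finger protein that acts on splicing and mRNA stability, was at 3.03, 3.05 and 2.70 FPKM in PBS and at 2.18, 2.33 and 2.55 in PP. Every PP library was below every PBS library, with 796 to 883 counts in PBS and 630 to 786 in PP. ZMAT3 changed by -0.23 log2 units (SE 0.07, 95% confidence interval -0.38 to -0.07, limma adjusted p = 0.0127).

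The pair of genes that recognise damaged DNA in nucleotide excision repair differed. XPC (ENSG00000154767, chr3:14186647-14220121), which senses helix distortion across the genome, was at 27.3, 28.2 and 28.7 FPKM in PBS and at 49.6, 49.5 and 48.6 in PP. It was the highest of the 9 genes in both groups, and the groups were far apart relative to their spread (28.1 ± 0.739 and 49.2 ± 0.547). The log2 fold change was 0.79 (SE 0.04, 95% confidence interval 0.71 to 0.87, limma adjusted p = 2.83e-08), and 4.11% of all genes tested had a higher one.

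DDB2 (ENSG00000134574, chr11:47236016-47260768), which binds ultraviolet-induced lesions and hands them to XPC, was at 12.7, 14.5 and 15.1 FPKM in PBS and at 14.5, 13.7 and 15.2 in PP. The groups overlap, and PBS replicate 1 was the lowest library. DDB2 changed by 0.04 log2 units (-0.10 to 0.18, limma adjusted p = 0.594), and without PBS replicate 1 it was -0.03. DDB2 carries the one pair of half-sites without a mismatch among the sequences written above, and XPC a pair with 3. The difference between XPC and DDB2 was 0.95 ± 0.08 units of log2(FPKM + 1) in PBS and 1.70 ± 0.09 in PP.

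Of 30 other nucleotide excision repair genes tested, 15 rose, 8 fell and 7 were not called, with a median log2 fold change of 0.10. Among all genes tested, 38.1% were called higher and 34.4% lower, with a median of 0.02. XPA, which verifies the lesion, rose by 0.66 log2 units (5.11 ± 0.18 to 8.65 ± 0.814 FPKM), and CCNH, a cyclin of the TFIIH complex, rose by 0.60 log2 units. CETN2, a small partner of XPC, fell by 0.85 log2 units (23.8 ± 1.72 to 12.8 ± 1.45 FPKM), and UVSSA, which acts in transcription-coupled repair, fell by 0.74 log2 units. Named after their values were seen, the XPC partner RAD23B rose by 0.12 log2 units, and DDB1, the partner of DDB2, fell by 0.29 log2 units. CETN2 and RAD23B thus did not share a direction.

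**Figure D2:**
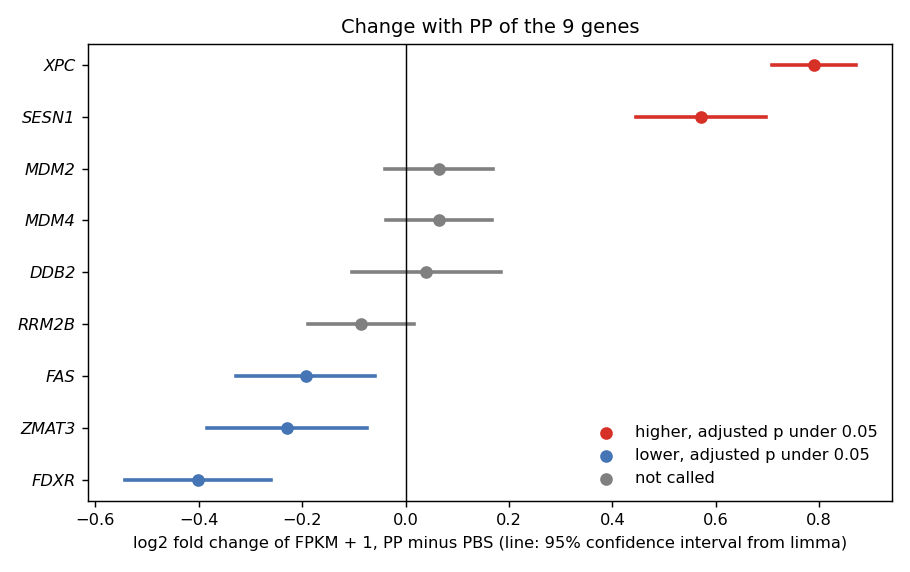
Log2 fold change of FPKM + 1, PP minus PBS, for the 9 genes (points) with 95% confidence intervals from limma (lines); red was called higher, blue lower and grey not called. XPC (0.79) and SESN1 (0.57) lie right of 0, FDXR (-0.40), ZMAT3 (-0.23) and FAS (-0.19) lie left of it, and the other intervals cross it.

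RRM2B (ENSG00000048392, chr8:103216730-103251189), the p53-induced subunit of ribonucleotide reductase that supplies deoxynucleotides outside S phase, was at 18.7, 18.0 and 18.2 FPKM in PBS and at 16.2, 17.7 and 17.6 in PP. All PP libraries were below all PBS libraries, but by little, and the log2 fold change of -0.09 was not called (-0.19 to 0.02, limma adjusted p = 0.114). It was called when FPKM was rescaled to the upper quartile (-0.12, limma adjusted p = 0.0326).

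The S-phase subunits of the same enzyme fell. RRM2 was at 70.2, 70.6 and 68.2 FPKM in PBS and at 37.6, 40.1 and 40.6 in PP, a log2 fold change of -0.81 (limma adjusted p = 4.01e-08), and the large subunit RRM1 changed by -0.33 log2 units (79.2 ± 1.94 to 62.6 ± 0.846 FPKM). RRM2B relative to RRM2 was thus at 0.266, 0.256 and 0.266 in the PBS libraries and at 0.432, 0.442 and 0.434 in the PP libraries, in FPKM ratios. The ratio was higher in every PP library, while the level of RRM2B itself was not.

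SESN1 (ENSG00000080546, chr6:109305512-109416049), a sestrin that limits mTORC1 through the GATOR2 complex, was at 3.15, 3.03 and 3.32 FPKM in PBS and at 5.17, 5.32 and 5.06 in PP, with 542 to 632 counts in PBS and 968 to 1012 in PP. All PP libraries were above all PBS libraries. SESN1 changed by 0.57 log2 units (SE 0.06, 95% confidence interval 0.44 to 0.70, limma adjusted p = 7.55e-06), and 8.70% of all genes tested had a higher one.

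Its paralogue SESN2, which senses leucine and can be raised by ATF4 as well as p53, rose from 8.15 ± 0.488 to 36.1 ± 0.71 FPKM, a log2 fold change of 2.02. SESN3 fell by 0.23 log2 units (5.32 ± 0.0811 to 4.38 ± 0.14 FPKM), so the 3 sestrins did not share a direction. In FPKM, SESN1 was at 0.415, 0.363 and 0.390 of SESN2 in the PBS libraries and at 0.142, 0.146 and 0.144 of it in the PP libraries. Of the 7 genes listed for SESN2, SESN3 and GATOR2, 4 rose, 1 fell and 2 were not called, and the GATOR2 subunits MIOS and SEC13 rose by 0.43 and 0.23 log2 units.

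FDXR (ENSG00000161513, chr17:72858619-72869156), the mitochondrial reductase that passes electrons from NADPH to ferredoxin, was at 5.19, 5.67 and 5.94 FPKM in PBS and at 4.20, 3.77 and 4.01 in PP. The groups do not overlap, and the counts were 345 to 399 in PBS and 245 to 282 in PP. FDXR changed by -0.40 log2 units (SE 0.06, 95% confidence interval -0.54 to -0.26, limma adjusted p = 2.30e-04). Of 6 tested genes of ferredoxin electron transfer and iron-sulphur cluster assembly, ISCU, the assembly scaffold, rose by 0.50 log2 units, LYRM4, a partner of the cysteine desulphurase, fell by 0.21 log2 units, and 4 were not called.

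The 5 pairs of related genes were compared within libraries by a two-sided exact permutation test, for which 3 against 3 libraries cannot give a p under 0.1. XPC against DDB2, SESN1 against SESN2, RRM2B against RRM2 and FAS against TNFRSF10B each gave this smallest p of 0.1 (0.125 after Benjamini-Hochberg adjustment over the 5 pairs). The changes of the difference, PP minus PBS, were 0.75, -1.45, 0.72 and -1.66, and the direction was that of all 3 PP libraries in each. MDM2 against MDM4 changed by less than the spread between libraries.

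**Figure D3:**
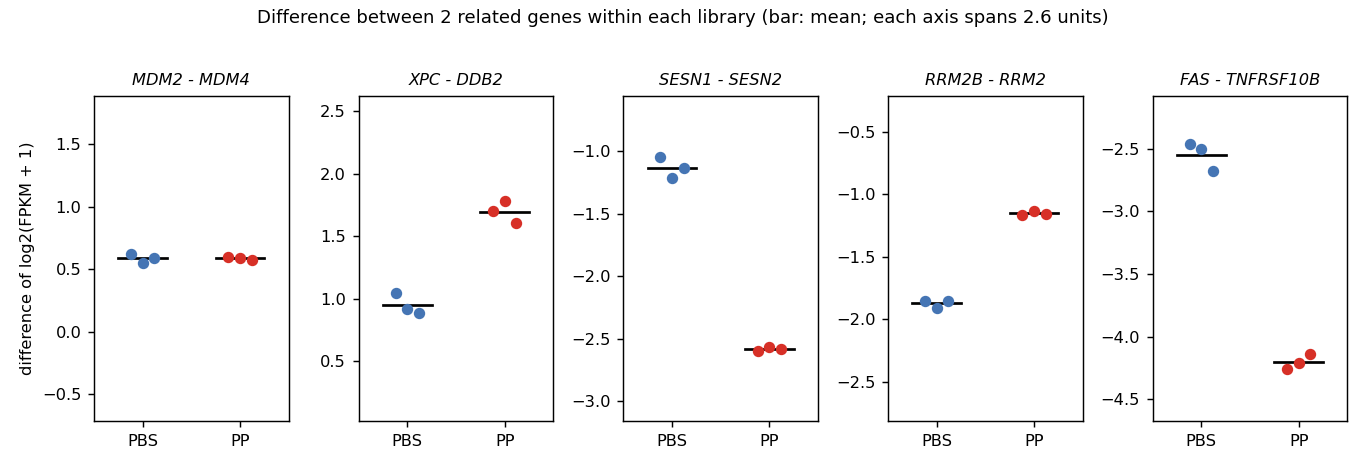
Difference of log2(FPKM + 1) between 2 related genes within each library, for 5 pairs in PBS and PP; points are libraries, bars are means, and all axes span the same number of units. The groups are apart in 4 pairs, with SESN1 minus SESN2 moving from -1.13 to -2.58, and overlap for MDM2 minus MDM4.

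Per length, the genes ranked in PBS as XPC, RRM2B, MDM2, DDB2, MDM4, FDXR, SESN1, ZMAT3 and FAS from high to low FPKM. RRM2B and MDM2 overlapped over the 3 libraries, as did SESN1 and ZMAT3, so neither neighbour was above the other beyond the spread. In PP the order was XPC, MDM2, RRM2B, DDB2, MDM4, SESN1, FDXR, ZMAT3 and FAS, and no neighbours overlapped. SESN1 thus stood below FDXR in every PBS library and above it in every PP library. The median FPKM over all genes tested was 10.8 in PBS and 11.1 in PP, so XPC, RRM2B, MDM2, DDB2 and MDM4 were above it and FDXR, SESN1, ZMAT3 and FAS below it in both groups.

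No member passed the cutoff of the study's bulk transcriptome methods (P under 0.001, here unadjusted, beside a log2 fold change beyond 1 in either direction), by limma or by limma-voom. Of all genes tested, 2.24% were past it upward and 2.93% downward. The RNA-sequencing methods of the study give a P threshold of 0.05 instead. At an unadjusted P under 0.05, 4 of the 8 genes above the filter were counted by either tool, against 74.3% of all genes tested by limma and 75.1% by limma-voom. Among the 8 genes above the filter, the PP libraries were all above the PBS libraries for XPC and SESN1, as in 39.5% of all genes tested, and all below for RRM2B, ZMAT3 and FDXR, as in 35.5%. The shares of the 9 genes that were called were thus near or below those of all genes.

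Genes that act on p53 itself moved in both directions. Of 21 regulators tested, 13 rose, 6 fell and 2 were not called, with a median log2 fold change of 0.24. Among all genes tested, 38.1% were called higher and 34.4% lower, with a median of 0.02. The acetyltransferase CREBBP rose by 0.49 log2 units (20.4 ± 0.301 to 28.9 ± 0.812 FPKM). The phosphatase PPM1D, itself a p53 target that switches the response off, was at 10.2, 10.4 and 9.61 FPKM in PBS and at 12.7, 14.4 and 15.4 in PP. The family member TP73 fell by 0.49 log2 units (23.1 ± 0.898 to 16.2 ± 0.492 FPKM). Of the deubiquitinases that stabilise MDM2, USP2 fell by 0.39 log2 units, and USP7, named after its value was seen, rose by 0.38 log2 units.

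For 50 other p53 targets written in 5 lists by role, 42 genes were tested, of which 17 rose, 15 fell and 10 were not called, with a median log2 fold change of -0.02. The shares of all genes tested were 38.1% higher and 34.4% lower. SPATA18 was listed at 0 in all 6 libraries. A group of 6 of these targets that ATF4 or CHOP can also raise was listed with their rise in these libraries known, so its count is no independent evidence of a direction: SESN2, GDF15, TNFRSF10B, BBC3, PMAIP1 and GADD45A all rose, by a median of 1.44 log2 units. The remaining 36 tested targets had 11 higher, 15 lower and 10 not called, with a median log2 fold change of -0.08. The 2 counts for the 6 and the 36 genes describe these lists and were not compared by a test.

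By role, 3 of 8 arrest genes rose and 4 fell. GADD45A rose by 1.44 log2 units (102 ± 2.26 to 280 ± 7.94 FPKM) and PPM1D by 0.45 log2 units, while SFN and BTG2 fell by 0.48 and 0.44 log2 units. CDKN1A, which encodes the kinase inhibitor p21 and is named after its value was seen, was at 55.0 ± 1.73 FPKM in PBS and 48.3 ± 0.305 in PP, a log2 fold change of -0.18 (limma adjusted p = 9.90e-04). Of 12 apoptosis genes, 5 rose and 4 fell, with BBC3 (encoding PUMA) up by 1.14 log2 units beside TNFRSF10B, and PIDD1 down by 0.70 log2 units. TP53INP1 was at 11.8, 11.8 and 11.6 FPKM in PBS and at 5.68, 5.33 and 5.07 in PP. Of 5 repair and nucleotide supply genes, GADD45A and the translesion polymerase POLK rose, the latter by 0.19 log2 units, and 3 were not called.

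Of 10 metabolism and stress genes, 5 rose and 3 fell. SESN2 and the secreted factor GDF15 led those that rose, GDF15 by 1.43 log2 units (146 ± 2.08 to 397 ± 16.3 FPKM), and ALDH4A1 and FUCA1 fell by 0.39 and 0.31 log2 units. Of 8 targets with other roles, 3 rose and 4 fell. RNF19B and ASCC3 rose by 0.80 and 0.67 log2 units, and PLXNB2 and SUSD6 fell by 0.72 and 0.49 log2 units. Genes that p53 is known to lower through p21 and the DREAM complex, most of them genes of cell division, fell in 12 of 15 cases, while 1 rose and 2 were not called, with a median log2 fold change of -0.31. Among all genes tested, 34.4% were called lower and 38.1% higher. BIRC5 and CCNB1 fell by 0.61 and 0.57 log2 units, and CENPA fell by 0.12 log2 units.

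**Figure D4:**
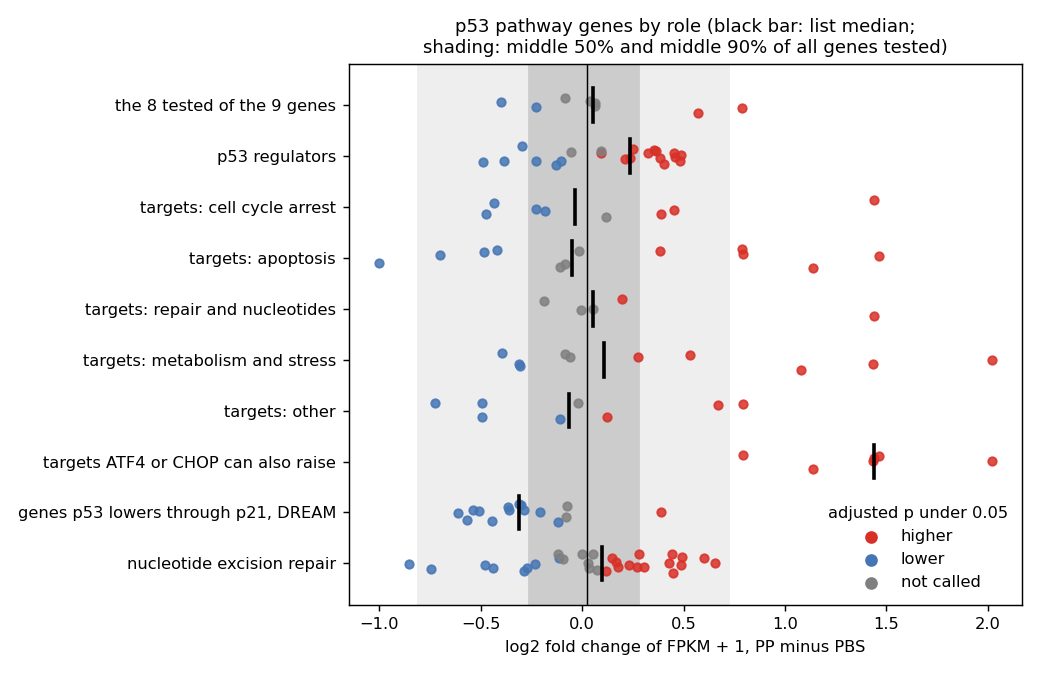
Log2 fold change of FPKM + 1, PP minus PBS, of p53 pathway genes by role; each point is a gene coloured by its call, black bars are list medians, and the shading spans the middle of all genes tested. The list medians lie near that of all genes (0.02), except for the regulators (0.24), the targets that ATF4 or CHOP can also raise (1.44) and the genes lowered through p21 and DREAM (-0.31). All lists were chosen with earlier results of these data known, and the ATF4 or CHOP list with the rise of its genes known. The medians are therefore no independent evidence of a direction.

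The 3 genes whose pattern over the 6 libraries was most like that of MDM2 were DCAKD, ARHGAP17 and TAX1BP1. Their mean absolute difference from MDM2, in log2(FPKM + 1) centred on each gene's own mean, was 0.0101, 0.0120 and 0.0129. As MDM2 itself varied little, this likeness is that of genes with small changes, and it is over 6 libraries only.

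Each change of the 9 genes was recomputed with other processing and with each library left out. XPC, SESN1, FDXR and ZMAT3 kept their direction and their call in every alternative that tested them. XPC ranged from 0.75 to 0.81, SESN1 from 0.54 to 0.71, FDXR from -0.49 to -0.36 and ZMAT3 from -0.31 to -0.19. MDM2 ranged from 0.03 to 0.10 and MDM4 from 0.03 to 0.08, and neither was called in any of them.

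**Figure D5:**
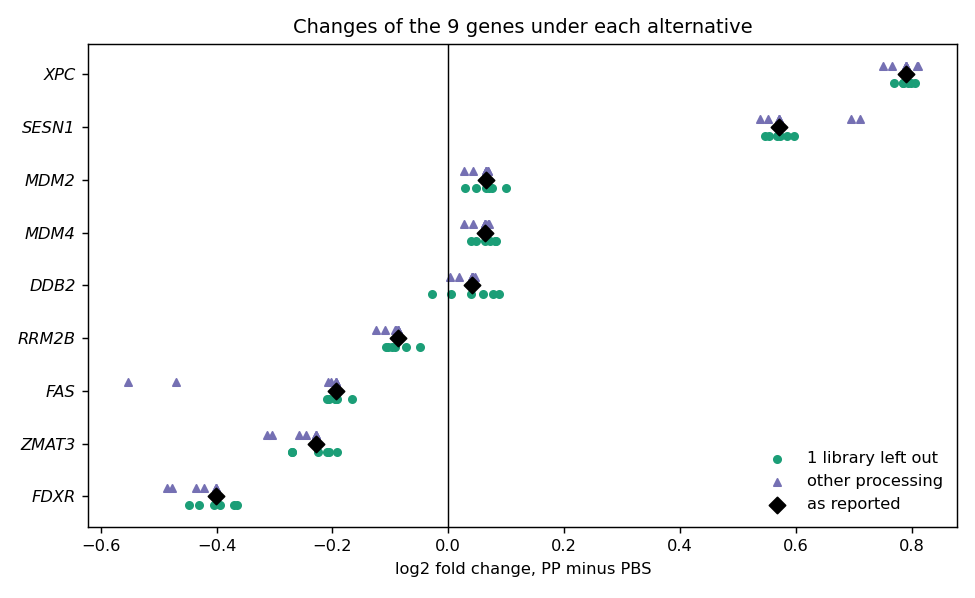
Log2 fold change, PP minus PBS, of the 9 genes as reported (black diamonds), with 1 library left out (green points) and with other processing (violet triangles). XPC and SESN1 stay right of 0 and FDXR, ZMAT3, FAS and RRM2B left of it, FAS reaches -0.55, and DDB2 crosses 0 with 1 library left out (-0.03).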

How the data were processed

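The 6 RNA-seq libraries of NCI-H660 cells, 3 with PP and 3 with PBS, were analysed. The authors deposited one FPKM value per gene symbol and library. Per the labels, libraries were stranded mRNA libraries read as pairs, and the submitters' processing notes name fastp, HISAT2, HTSeq and GRCh38, while the methods name Bowtie, RSEM, Cufflinks, HTSeq and hg19. Which of them gave the deposited FPKM is not settled, and the table holds no coordinates. Gene positions given here are from GENCODE on hg19, and promoter windows are from RefSeq.

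Symbols were matched exactly. Whole counts were recovered from the FPKM steps of all 17177 genes, with a tolerance of 0.01 count. Genes whose mean FPKM reached 1 were fitted with limma 3.58.1 in R 4.3.3 (lmFit, eBayes with trend) on log2(FPKM + 1), with Benjamini-Hochberg adjustment over all genes tested. Pairs of genes were compared with exact permutation tests (scipy 1.17.1). Count recovery and the limma fit were tested on simulated data, in which far fewer genes changed than were called here. The permutation tests, limma-voom and the rescaling were not tested in this way. Alternatives varied pseudocount, filter, scaling, trend, replicate block, count model and libraries.

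The members and lists were chosen with earlier results of these data known. Beyond the members, genes were named by a rule: the second gene of each pair, the 2 highest and 2 lowest called genes of each list, the 3 genes most like MDM2, and leading markers. The text says where others are named. Some genes that the rule also names are not reported here. With 29064253 to 32481171 counts per library, FAS, the lowest of the 9 genes, rests on 94 to 162 counts per library.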

Additional observations from a re-analysis of the deposited data

How the results depend on the processing

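Of the results for the 9 genes, the calls of FAS and RRM2B depended on the processing, as given above: FAS was not called without PP replicate 2 (-0.17, adjusted p from limma 0.0568), and RRM2B was called lower with upper-quartile scaling (-0.12, adjusted p from limma 0.0326). DDB2, never called, turned to -0.0274 without PBS replicate 1 (-0.0274 to 0.0879 over the libraries left out). The change of MDM2 minus MDM4 was within 0.02 of 0 throughout and was below 0 with a pseudocount of 0.1 (-0.0010) and without some libraries (-0.0194 to 0.0182). With a mean FPKM of at least 5, XPC was the 1 gene called higher and 0 were called lower, because FAS, ZMAT3, SESN1 and FDXR were no longer tested. For all genes at the bulk transcriptome cutoff of the study, 397 were higher and 559 lower with limma-voom, and 531 were lower with a pseudocount of 0.1, against 263 and 344. Libraries with the same number in the labels did not deviate together from their group means (correlation of deviations -0.21, -0.014 and -0.13 for numbers 1, 2 and 3). With 3 libraries per group, this cannot settle whether the numbers pair the samples. With a replicate block, 4260 genes were higher and 3878 lower, against 4464 and 4032, and the calls of the 9 genes did not change: 2 were higher and 3 lower, XPC at 0.79 and SESN1 at 0.57. Depth limits FAS most, with 94 to 162 counts per library, and no reads, isoforms or protein levels of p53 or MDM2 were analysed here.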
